A study of Mus musculus with 6 samples.

Results

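Dendritic cells were taken from 2 libraries of young mice, 1 of soleus muscle after 14 days of hindlimb unloading (HU) and 1 of soleus muscle after HU and 4 days of reloading (4-day reload). A barcode was counted as a dendritic cell when it held at least 200 genes and at most 10% mitochondrial transcripts, a unique molecular identifier (UMI, 1 counted transcript) of at least 2 of Flt3, Cd209a, Ccl17, Mgl2, Clec10a, Clec9a, Xcr1 and Ccr7, at most 1 UMI over the complement genes C1qa, C1qb and C1qc, and 0 UMIs of Cd3e and Cd79a. The members were thus chosen by measured values of these genes, and they came to 460 cells of 3969 kept barcodes, 108 of 1518 after HU and 352 of 2451 at 4-day reload. In the 6 libraries of the whole series, 1067 of 12520 kept barcodes met the same rule. All mice were C57BL/6 males, with no other allele or agent in the labels, young mice were 4 to 5 months old, and the solei of 8 HU mice and 10 reload mice were pooled before living (DAPI−) leukocytes (CD45+) were sorted and sequenced. The old mice used beside them, 20 to 22 months old, had the same HU and reloading with 10 mice in each pool. The HU and reload libraries shared a sequencing run, but the labels give them different prefixes. With 1 pooled library a side, library and condition cannot be told apart, and no test was possible within the young pair.

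Dendritic cells sample proteins in tissues, carry them to lymph nodes on MHC class II and on MHC class I, and start T cell responses there. Conventional dendritic cells fall into cDC1, which depend on IRF8 and BATF3 and are specialised in presenting material from dead cells to CD8 T cells, and cDC2, a mixed group that mainly serves CD4 T cells. Both can mature, gaining CCR7 and costimulatory molecules and leaving the tissue, and inflamed tissue also holds monocyte-derived cells that share many cDC2 genes.

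The libraries differed in depth. Young HU gave 2126 barcodes with 5782054 UMIs and young reload 3676 barcodes with 22749375 UMIs, and 27.5% and 33.3% of barcodes went over the mitochondrial limit. The chosen cells had a median of 5940 UMIs after HU and 11750 at reload and summed to 638738 and 4432683 UMIs, so values of HU set the precision. The 2 libraries shared 17 barcode sequences, none of them a chosen cell in both. Exactly 2 of the 8 genes were found in 39 of the HU cells and 138 of the reload cells, while 40 and 130 cells outside had 1 of the 8 and met the other limits. Just inside the complement limit were 14 and 67 cells with 1 UMI, and just outside it 1 and 13 cells with 2 UMIs.

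The chosen cells made up 7.11% of kept cells after HU (exact binomial 95% interval 5.87 to 8.53) and 14.4% at reload (12.996 to 15.8). The difference of 7.25 percentage points (Newcombe interval 5.31 to 9.12) depended on depth and on the cells taken as the total. When every cell was first thinned to 2000 UMIs and shallower cells were left out, 77 of 939 cells (8.20%) and 199 of 2175 cells (9.15%) met the rule, a difference of 0.949 points (−1.29 to 2.99). A higher frequency of dendritic cells at reload was therefore not detectable at equal depth. Ptprc, the gene of CD45, was found in 414 of 1518 kept HU cells and 1943 of 2451 kept reload cells. Among these, 55 (13.3%) and 316 (16.3%) met the rule, 2.98 points apart (−0.959 to 6.37). In the old libraries the shares were 4.50% of 1890 and 9.57% of 2425 kept cells without thinning. All such intervals cover counting error only.

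**Figure D1:**
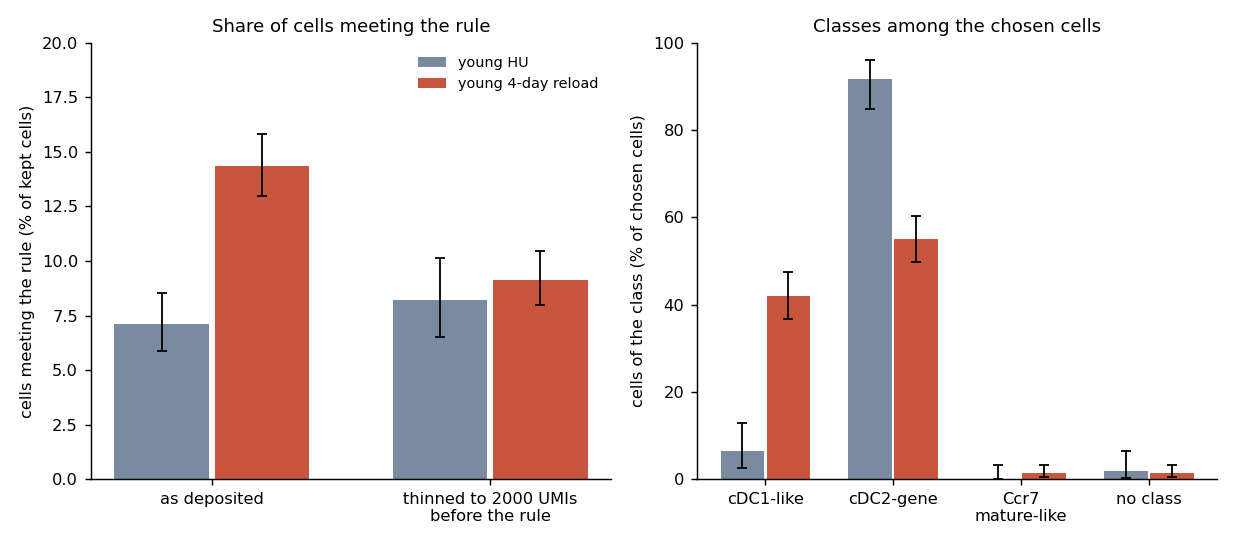
Left, chosen cells as a percentage of kept cells in young HU and young 4-day reload, as deposited and after thinning each cell to 2000 UMIs. Right, classes as a percentage of the 108 and 352 chosen cells. Bars are the shares and lines exact binomial 95% intervals. The share of chosen cells is apart between libraries without thinning only, and the cDC1-like class holds 6.48% of HU and 42.0% of reload cells.

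The label was checked against genes that the rule did not use. H2-Ab1, a chain of MHC class II, was found in 100% of HU and 98.6% of reload cells, and Zbtb46, a transcription factor of conventional dendritic cells, in 9.26% and 31.0%. As a description, the growth factor receptor gene Flt3, by which cells were chosen, was found in 27 of 108 HU cells and in 69.6% of reload cells, against 0% and 1.54% of T cells in the same libraries. Those 44 and 65 T cells were shallower, with medians of 2511.5 and 3320 UMIs. After thinning to 2000 UMIs, Flt3 was found in 11.2% of HU and 23.1% of reload cells. Zbtb46 was thus found in a minority of cells in both libraries, and macrophage and monocyte genes were present in both. H2-Ab1 and Zbtb46 are given without comparison cells, so the name dendritic cells rests on the rule. The macrophage gene Cd163 was found with Cd209a in 47 of 108 HU cells and 29 of 352 reload cells. With Flt3 it was found in 9 and 17 of them. At least 2 of 11 macrophage genes were found in 37 HU cells (34.3%) and 98 reload cells (27.8%), and at least 3 of 12 monocyte genes in 4 (3.70%) and 129 (36.6%). Over whole marker lists, macrophage genes summed to 700 CPM (UMI counts scaled to a common library total) after HU and 901 at reload, monocyte genes to 540 and 1092 CPM, and T cell genes to 1.57 and 6.99 CPM. Endothelial genes stood at 719 CPM in HU and 14.4 CPM at reload, with 69.9% of the HU value from 1 cell.

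Each chosen cell was put in the class with most detected markers of 3 lists of 10 genes. The cDC1 list held Clec9a, Xcr1, Cadm1, Wdfy4 and others, the cDC2 list Cd209a, Clec10a, Mgl2, Cd209d and others, and the third list Ccr7, Fscn1, Ccl22 and others. The cDC1-like class held 7 of 108 HU cells (6.48%, 2.65 to 12.9) and 148 of 352 reload cells (42.0%, 36.8 to 47.4), a difference of 35.6 points (27.5 to 41.7). As a share of kept cells it went from 0.461% to 6.04%. This difference was smaller at equal depth. With the chosen cells thinned to 2000 UMIs, 3 of 98 and 105 of 346 cells were cDC1-like, 27.3 points apart (20.1 to 32.7). With thinning before the rule 2 of 77 (2.60%) and 24 of 199 (12.1%) were, 9.46 points apart (2.02 to 15.05). In the old libraries the class held 15.3% and 34.5% of chosen cells, 19.2 points apart (8.36 to 28.0). Because Clec9a and Xcr1 served both the rule and the class, these shares are a description, and their intervals cover counting error only.

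The cDC1-like cells carried genes that neither the rule nor the class list used. Irf8, the transcription factor that cDC1 need, was found in 7 of 7 HU and 138 of 148 reload cDC1-like cells at 650 and 591 CPM, against 8.87 and 47.4 CPM in the cells of the cDC2 list. Over all chosen cells, whose share of cDC1-like cells differed, Irf8 was at 78.3 CPM after HU and 350 CPM at reload. The reload cDC1-like cells were further marked by Gcsam, Gatm, Ppt1, Tbc1d8 and the chemokine receptor gene Cxcr3. At least 3 of 10 mitosis genes were found in 21 of 148 cDC1-like and 6 of 194 cDC2-list cells at reload, and in 0 of 7 and 2 of 99 after HU. In the cDC1-like class the median depth was 8690 UMIs after HU and 15702 at reload, and the part of depth in these counts was not tested.

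**Figure D2:**
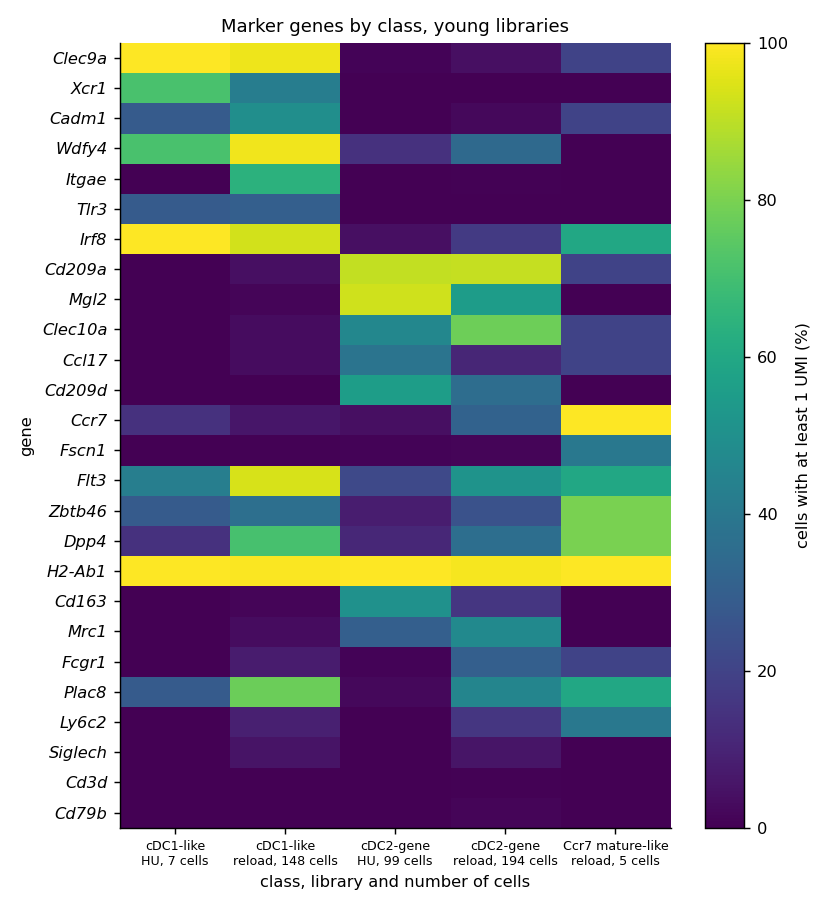
Percentage of cells with at least 1 UMI of each marker gene (colour) by class and young library, with the number of cells under each column. Clec9a and Irf8 fill the cDC1-like columns, Cd209a the cDC2-gene columns of both libraries, Cd163 is found in more cDC2-gene cells after HU, and Plac8 and Fcgr1 in more at reload.

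Cells with most markers of the cDC2 list numbered 99 of 108 after HU (91.7%) and 194 of 352 at reload (55.1%), a difference of −36.6 points (−43.1 to −28.1), while their share of kept cells was 6.52% and 7.92%. They are called cDC2-gene cells here and not a cell type, because clustering of the 460 cells placed most of them in 4 clusters of mixed kind. Clusters 0, 1, 2 and 5 were richest in markers of the cDC2 list, with 5, 4, 4 and 3 of them. Their leading genes, however, held more members of another list than of the cDC2 list, in cluster 0 by 1 against 0. Cluster 0, with 96 HU and 21 reload cells, was led by Retnla, Hspb1, Lyz1 and Cd163. Cluster 1, with 1 and 71 cells, was led by Ccr7 and Ccl22, and cluster 2, with 2 and 66 cells, by Apoe, Thbs1, Cxcl2 and F13a1. Cluster 5 held 50 reload cells and was led by Ifit3, Siglech, Ly6a and Rsad2. Most HU cells thus stood in cluster 0, and clusters 1, 2 and 5 came almost wholly from the reload library. Clusters 3 and 4 were cDC1-like. Where cDC2-gene cells are compared below, the values are also given for a core of 62 HU and 101 reload cells that had fewer than 2 of the 11 macrophage genes and fewer than 3 of 8 plasmacytoid dendritic cell genes.

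Lectins that the cells had been chosen by differed within cDC2-gene cells, as a description. Cd209a, a DC-SIGN family lectin, was at 1028 CPM in the HU and 1821 CPM in the reload cDC2-gene cells and at 1020 and 1702 CPM in the core. Clec10a, a galactose lectin, was at 161 and 510 CPM, and at 172 and 533 CPM in the core. Mgl2, its close relative, was at 1321 and 657 CPM, and at 1127 and 423 CPM in the core. Mgl2 was thus lower at reload while Cd209a and Clec10a were higher. Cd209d, of the cDC2 list but not used by the rule, was at least 2-fold lower in young and old cDC2-gene cells. Cd163, the haemoglobin scavenger receptor, belongs to the macrophage list and was not used by the rule. It was at 190 and 38.6 CPM in cDC2-gene cells, a log2 ratio of −2.30 (95% interval −2.74 to −1.86), and at 144 and 12.03 CPM in the core, a ratio of −3.58 (−4.63 to −2.65). Of the mature class, 0 of 108 HU cells were found, which allows a share of up to 2.78% at 3 counts (the exact interval ends at 3.36%), and 5 of 352 reload cells (1.42%). Ccr7, the receptor that guides dendritic cells to lymph nodes, had 7 UMIs in 5 HU cells and 1258 UMIs in 77 reload cells, of which 61 were cDC2-gene cells with 809 UMIs. Only 14 of the Ccr7-positive reload cells also had Fscn1 or Ccl22, and T cells of the same libraries had Ccr7 in 15.9% and 21.5%. In the old libraries Ccr7 was at 155 CPM after HU, 62.0% of it from 1 cell, and at 141 CPM at reload.

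For genes, UMIs were summed over the chosen cells of a library and scaled to CPM, and a log2 ratio of reload over HU was given an exact interval for a ratio of Poisson counts. Of 6775 genes with at least 5 UMIs expected on the smaller side, 1450 (21.4%) were at least 2-fold higher and 400 (5.90%) at least 2-fold lower in the reload library, with a median log2 ratio of 0.28. In the cDC2-gene cells it was 1403 (21.9%) and 467 (7.29%) of 6405 genes, and in the core cells 1235 (25.4%) and 379 (7.78%) of 4870. The old libraries gave 941 (14.5%) and 241 (3.70%) of 6505 genes, in their cDC2-gene cells 875 (15.6%) and 217 (3.87%) of 5612, and in their core cells 663 (16.2%) and 188 (4.59%) of 4099. Of the 1297 genes higher in young and measured in both ages, 462 were also 2-fold higher in old (35.6%, where 14.3% of all genes were), and of 350 lower ones 108 were also lower in old (30.9%, where 3.36% were).

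Genes with the largest positive ratios included enzyme inhibitors, receptors and interferon-induced genes. Gpr171, a G protein-coupled receptor, had 4 UMIs (6.26 CPM) after HU and 1218 (275 CPM) at reload, a log2 ratio of 5.46 (4.10 to 7.33), and was found in 3.70% and 62.2% of cells. Il1r2, the decoy receptor of interleukin 1, had 11 UMIs (17.2 CPM) and 1772 (400 CPM), a ratio of 4.54 (3.69 to 5.54). Timp1, an inhibitor of matrix metalloproteases, had 1 UMI after HU and 448 at reload, a ratio of 6.01 (3.53 to 11.32). In old mice Gpr171 went the same way, from 30.4 to 140 CPM, while Timp1 stood at 45.6 and 48.9 CPM. Fcgr1, the high-affinity IgG receptor that marks macrophages and monocyte-derived cells, had 1 and 228 UMIs, a ratio of 5.04 (2.55 to 10.35), and Il21r, the interleukin 21 receptor, 1 and 205. Plac8, a gene of classical monocytes, had 16 UMIs, 62.5% of them in 1 HU cell, and 1950, and Ly6c2, a further monocyte gene, 0 and 375 UMIs, a log2 ratio of at least 4.17 against a floor of 3 counts. Plac8 was not particular to a class, as at reload it was found in 115 of 148 cDC1-like cells (449 CPM) and 88 of 194 cDC2-gene cells (388 CPM). Of 8 measured genes of the monocyte marker list, 5 were at least 2-fold higher and 1, Ly6c1, was lower. Among all genes 21.4% were higher and 5.90% lower. The sum of the list is given above, and its part in the gene ratios was not tested.

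**Figure D3:**
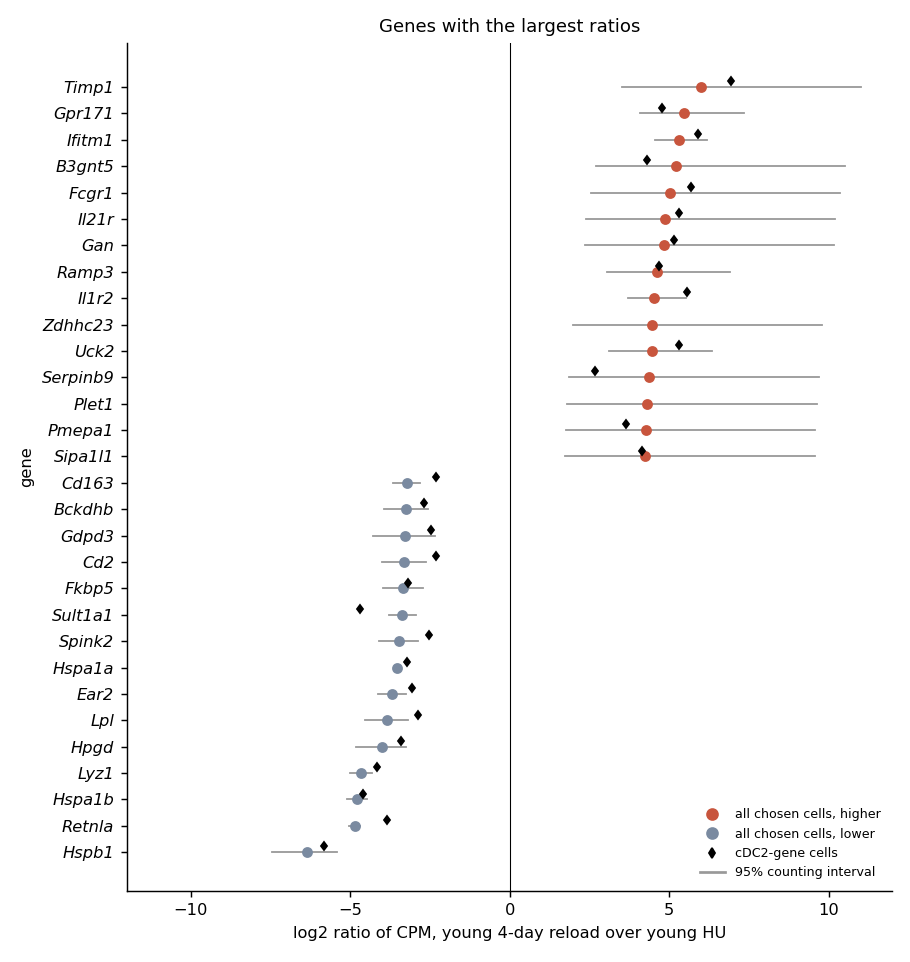
Log2 ratio of CPM, young 4-day reload over young HU, for the 15 largest ratios each way among measured genes found in at least 10% of cells on the higher side. Circles are all chosen cells with 95% counting intervals and diamonds the cDC2-gene cells. Timp1, Gpr171 and Ifitm1 lead the higher genes, and Hspb1, Retnla and Hspa1b the lower ones.

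Genes with the largest negative ratios included secreted products, enzymes and heat shock genes. Retnla, a secreted product of alternatively activated myeloid cells, was at 2164 CPM after HU and 74.4 CPM at reload, a log2 ratio of −4.86 (−5.04 to −4.69), and was found in 27.8% and 3.12% of cells. Lyz1, a lysozyme, had a ratio of −4.65, Ear2, an eosinophil-associated ribonuclease, −3.69, and Hpgd, which inactivates prostaglandins, −4.02. In old mice Retnla stood at 1114 and 1066 CPM, whereas Ear2 (−2.25) and Hpgd (−2.19) had ratios of the same sign. The heat shock genes Hspa1a and Hspa1b were at 2674 and 678 CPM after HU and 233 and 24.6 CPM at reload. In old mice Hspa1a was at 289 and 302 CPM, so for Hspa1a the young HU library alone was high. In old cDC2-gene cells Hspa1b was at 72.1 CPM after HU and at least 2-fold lower at reload. The young cDC2-gene cells had Hspa1b at 732 and 30.4 CPM. Lpl, lipoprotein lipase, was at 93.9 and 6.54 CPM in young and at 25.3 and 66.0 CPM in old, with opposite signs.

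Interferon-response genes had the highest share of higher members among the gene lists other than cell type markers. Of 39 measured members, 27 were at least 2-fold higher and 2 at least 2-fold lower, against 21.4% and 5.90% of all genes, and their median log2 ratio was 1.66. In the core cells it was 25 and 0 of 35 with a median of 1.32, where 25.4% and 7.78% of all core genes were. In old mice 22 of 38 were higher and 2 lower, against 14.5% and 3.70% of all genes there. In the old core cells 6 of 22 were higher and 0 lower with a median of 0.60, against 16.2% and 4.59% of all genes there. Ifitm1, which restricts virus entry, was at 21.9 CPM after HU and 874 CPM at reload in young, a log2 ratio of 5.32 (4.57 to 6.19), and at 45.6 and 371 CPM in old. Irf7, the transcription factor that amplifies interferon production, was at 15.7 and 263 CPM in young, a ratio of 4.07 (3.19 to 5.14), and at 37.1 and 163 CPM in old. Both reload libraries were therefore above both HU libraries for these 2 genes. Of the HU UMIs, 71.4% of Ifitm1 and 70.0% of Irf7 came from 1 cell. At reload Ifitm1 was found in 90 of 148 cDC1-like cells (314 CPM) and 112 of 194 cDC2-gene cells (1490 CPM), so it was present in both classes.

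Many interferon-induced genes carry an interferon-stimulated response element near their start, which STAT and IRF proteins bind. The letters GAAA, followed by any 2 bases and GAAA again, were searched on both strands (on the other strand TTTC, any 2 bases and TTTC) from 250 bases before to 50 bases after each RefSeq gene start (GRCm38.p6, the build mm10). They were found in 1131 of 32851 promoters (3.44%), in 24 of 44 promoters of the interferon list (54.5%) and in 13 of 24 promoters of its 2-fold higher members (54.2%), so higher members did not hold it more often than the list. Windows around the matches are shown for 3 members that passed the test over both ages together given below, so that the shared letters can be read. They were chosen after their values were seen. Capitals mark overlapping matches, and each window is written 5′ to 3′ on the minus strand, the strand of the gene.
Isg15, chr4:156200845-156200926: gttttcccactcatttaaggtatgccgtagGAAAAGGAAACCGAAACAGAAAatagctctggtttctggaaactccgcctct
Bst2, chr8:71537557-71537632: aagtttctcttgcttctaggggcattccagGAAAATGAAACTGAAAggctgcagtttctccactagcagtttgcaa
Oas1a, chr5:120907500-120907575: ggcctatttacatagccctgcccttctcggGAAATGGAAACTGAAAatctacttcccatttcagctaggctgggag
Isg15, a ubiquitin-like protein, has its first match 78 bases before the start and was at 98.6 and 313 CPM in young HU and reload, a log2 ratio of 1.66 (1.30 to 2.05). Bst2, or tetherin, has its first match 130 bases before the start and was at 100.2 and 442 CPM, a ratio of 2.14 (1.78 to 2.52). Oas1a, a sensor of double-stranded RNA, has its first match 20 bases before the start and was at 12.5 and 51.7 CPM, a ratio of 2.04 (1.04 to 3.27). In old mice Isg15 was at 170 and 276 CPM, under 2-fold, with 245 and 225 CPM in the core cells, Bst2 was at 187 and 380 CPM and Oas1a at 13.5 and 30.7 CPM. Ifit1, a member that also holds the letters, was at 21.9 and 10.6 CPM.

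Glucocorticoid-response genes went the other way. Of 18 measured members, 9 were at least 2-fold lower (against 5.90% of all genes) and 1, Il1r2, was higher, with a list median of −1.07. In the core cells, which are limited in the list member Cd163, it was 8 and 1 of 18 with a median of −0.93. Of all core genes 7.78% were lower and 25.4% higher. Fkbp5, a co-chaperone of the glucocorticoid receptor and a direct target of it, was at 89.2 CPM after HU and 8.80 CPM at reload in young, a log2 ratio of −3.34 (−3.97 to −2.73), and at 50.6 and 10.5 CPM in old. Tsc22d3, the leucine zipper GILZ, was at 349 and 97.2 CPM, Ddit4, an inhibitor of mTORC1, at 197 and 27.1 CPM, and Klf9 at 81.4 and 14.9 CPM. The metallothioneins, which bind zinc and copper, went alike, Mt1 at 3025 and 1096 CPM and Mt2 at 294 and 60.2 CPM. Early response and dissociation genes were mixed, with 5 higher and 13 lower of 34 and a median of −0.50. Among these, Jun was at 927 and 128 CPM and Fos at 1112 and 466 CPM, while Nr4a2, a nuclear receptor, was at 45.4 and 435 CPM. These genes can respond to the handling of tissue, whose part was not tested.

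Genes of the NF-kB pathway depended on the cells. Over all chosen cells, 11 of 30 were at least 2-fold higher and 1 lower with a median of 0.60, and in the core cells 21 were higher and 0 lower with a median of 1.52, where 25.4% and 7.78% of all core genes were. Nfkb2, a subunit of the pathway, was at 14.1 CPM after HU and 92.5 CPM at reload, a log2 ratio of 2.71 (1.78 to 3.85), and Traf1, a signalling adaptor that NF-kB induces, at 84.5 and 361 CPM. In the old core cells 5 of 30 were higher and 1 lower, near the 16.2% and 4.59% of all genes there. The inhibitor gene Nfkbia had a ratio of −0.57 in young.

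Genes for T cell activation were described in 2 lists, whose difference was not tested. Among 12 measured costimulatory and inhibitory genes 6 were at least 2-fold higher and 1 lower, where 21.4% and 5.90% of all genes were. In old mice 1 of 11 was higher and 1 lower, where 14.5% and 3.70% of all genes were. Cd86 was at 31.3 CPM after HU and 144 CPM at reload, a ratio of 2.20 (1.56 to 2.92), Cd80 at 6.26 and 44.7 CPM, a ratio of 2.83 (1.46 to 4.72), and Cd40 at 12.5 and 67.9 CPM, a ratio of 2.44 (1.44 to 3.66). In the core cells Cd86 had a ratio of 3.30 (2.15 to 4.77). The old libraries had Cd86 at 77.6 and 86.9 CPM. Of 15 MHC class II genes, 3 were higher (Nfyb, Ciita and H2-Oa) and 1 lower (March1, a ligase that removes class II from the surface), near the shares of all genes. The class II chains had ratios near 0, with −0.06 for H2-Aa, 0.18 for H2-Eb1 and 0.54 for H2-Ab1, and the invariant chain Cd74 had −0.63.

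Secreted signals differed one by one. Il1b, the inflammatory cytokine interleukin 1 beta, was at 299 CPM after HU and 2677 CPM at reload in young, a log2 ratio of 3.16 (2.96 to 3.38), and was found in 22.2% and 83.5% of cells. It was found in 123 of 148 cDC1-like cells (1396 CPM) and 162 of 194 cDC2-gene cells (4207 CPM) at reload. In old mice Il1b was at 1077 and 1744 CPM, so the old HU library was above the young one. Tnf was at 211 and 40.8 CPM, with 43.0% of the HU value from 1 cell. Of 13 chemokine genes other than Ccl17, 6 were at least 2-fold higher and 3 lower, where 21.4% and 5.90% of all genes were. The lower ones were Cxcl10, an interferon-induced chemokine for T cells, at 293 and 39.7 CPM, Ccl6 at 1625 and 507 CPM, and Ccl4 at 679 and 264 CPM. Among growth factor and cytokine receptors other than Flt3, 8 of 27 were higher and 1 lower (21.4% and 5.90% of all genes), and Csf2rb, the shared chain of the receptors for GM-CSF, interleukin 3 and interleukin 5, was at 45.4 and 368 CPM, a ratio of 3.02 (2.49 to 3.60).

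**Figure D4:**
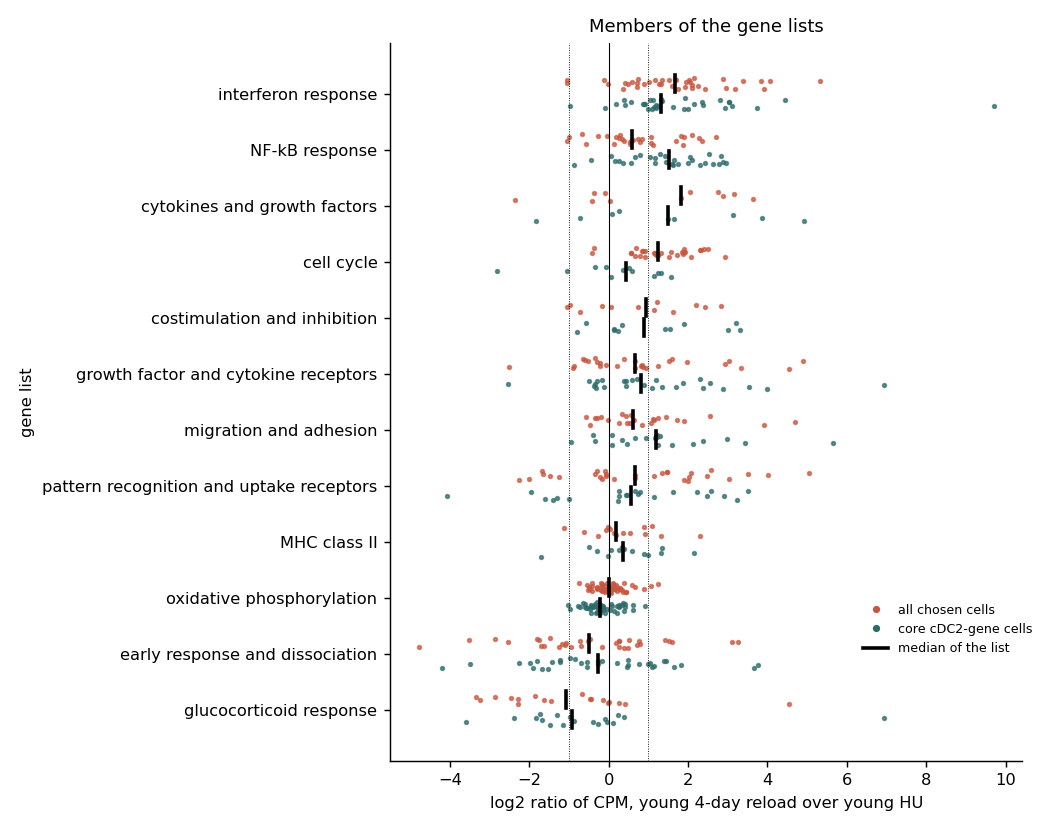
Log2 ratio of CPM, young 4-day reload over young HU, for each measured member of 12 gene lists, genes of the rule included, in all chosen cells and in the core cDC2-gene cells. Black bars are list medians and dotted lines 2-fold. The interferon list has a median of 1.66 and the glucocorticoid list of −1.07 in all chosen cells, and the NF-kB list moves from 0.60 in all chosen cells to 1.52 in the core.

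Other lists are read against the 21.4% of all genes that were higher and the 5.90% that were lower. Of 52 measured oxidative phosphorylation genes 2 were at least 2-fold higher and 0 lower, with a median of 0.01. Of 25 glycolysis and HIF genes 7 were higher and 1 lower, near those shares. Pfkp, a phosphofructokinase, was at 37.6 and 249 CPM and Ldha, lactate dehydrogenase A, at 440 and 956 CPM, while Gapdh was at 2932 and 1723 CPM. Of 31 cell cycle genes 20 were higher and 0 lower with a median of 1.24. In the core cells, however, 4 of 12 were higher and 2 lower, where 25.4% and 7.78% of all core genes were. In old mice 5 of 32 were higher and 1 lower, near the 14.5% and 3.70% of all genes there. Of 23 migration and adhesion genes other than Ccr7, 9 were higher and 0 lower, and Gpr183, the oxysterol receptor that places dendritic cells in lymphoid tissue, was at 42.3 and 99.7 CPM, with a ratio of 2.98 (1.90 to 4.32) in the core cells. Of 26 pattern recognition and uptake genes that the rule did not use, 13 were higher and 5 lower. Lipid handling, lysosome, calcium-binding and transcription factor genes had 7, 3, 5 and 9 members higher and 4, 3, 3 and 2 lower, of 22, 29, 31 and 39. Of 83 ribosomal protein genes 0 were higher and 2 lower, and of 13 mitochondrially encoded genes 1 (mt-Atp8) was higher.

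The old HU and reload libraries allowed a test with age as a block. Both HU libraries carry the same label prefix and both reload libraries another, so prefix and condition cannot be told apart in this test either. On the 4 sums of chosen cells, edgeR's quasi-likelihood test called 450 genes higher (5.93%) and 506 lower (6.67%) of 7588 at a Benjamini-Hochberg adjusted p under 0.05, with 1 residual degree of freedom. DESeq2 called 72 and 105. In the interferon list 23 of 40 genes rose and 0 fell by edgeR, where 27 and 1 had an unadjusted p under 0.05 and DESeq2 called 8 and 0. In the glucocorticoid list 1 rose (Il1r2) and 11 of 19 fell, and DESeq2 called 0 and 9, and in the early response list 5 rose and 15 of 36 fell. Of the NF-kB list 5 rose and 5 fell of 30. Ifitm1 rose by 3.90 on the log2 scale (SE 0.36, edgeR adjusted p 1.56e-06) and Irf7 by 2.81 (SE 0.35, edgeR adjusted p 3.38e-05). Fkbp5 fell by 3.06 (SE 0.35, edgeR adjusted p 1.34e-05), Cd163 fell by 3.17 (SE 0.28, edgeR adjusted p 8.81e-07) and the sulfotransferase gene Sult1a1 fell by 3.35 (SE 0.27, edgeR adjusted p 4.97e-07).

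Other members passed or missed the same test. Csf2rb rose by 2.47 (SE 0.25, edgeR adjusted p 3.68e-06) and Irf8 by 1.54 (SE 0.24). Il1b rose by 1.71 (SE 0.35, edgeR adjusted p 0.00341), a call that DESeq2 did not give (adjusted p 0.48). Of 14 costimulatory genes Cd40, Cd80 and Havcr2 rose and Tnfsf9 and Vsir fell by edgeR, where DESeq2 called 0 and 1, while Cd86, at 0.91, did not pass (edgeR adjusted p 0.0948). Of 15 MHC class II genes H2-Oa rose and Cd74 fell. Of 8 cDC1 list genes that the rule did not use, Ifi205, Itgae, Sept3, Snx22 and Wdfy4 rose by edgeR and 3 of the 8 by DESeq2. Wdfy4, which cDC1 need for cross-presentation, rose by 1.78 (SE 0.26). The cDC1-like share of the sums differed as given above, and the rule used Clec9a and Xcr1. These values and that of Irf8 are therefore a description. In cDC2-gene cells 2 of the 8 were tested and Ifi205 rose, and Irf8 rose there too. The gene with the largest fall was Gpihbp1 of capillary endothelium (−9.65), whose marker list came mostly from 1 HU cell, and of the genes with the 10 largest rises Ccl7, a monocyte-attracting chemokine, rose by 6.39 (SE 0.62, edgeR adjusted p 1.97e-06) and was found in 7.10% of young reload cells. In cDC2-gene cells alone 294 genes rose (4.75%) and 279 fell (4.51%) of 6193, among them 15 of 38 interferon genes that rose and 8 of 18 glucocorticoid genes that fell, with 0 and 1 in the other direction. The model takes the difference as the same in both ages. Fits with a single library left out also dropped the age block and left 1 library on a side. No gene is named from them, and only their counts are listed, under the dependence on processing.

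**Figure D5:**
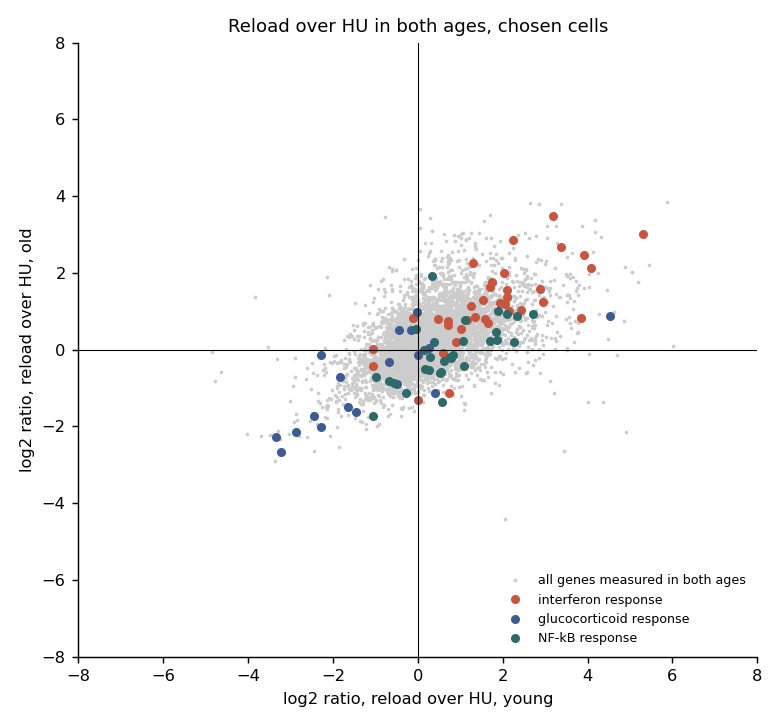
Log2 ratio of CPM, 4-day reload over HU, in chosen cells of young (horizontal) and old (vertical) mice for genes measured in both ages, with interferon, glucocorticoid and NF-kB response genes in colour. Interferon genes lie mostly in the upper right, with Ifitm1 at 5.32 and 3.02, and Fkbp5 and Cd163 lie in the lower left.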

How the data were processed

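Single cells of soleus were sequenced on the 10x Genomics Chromium platform (3′ chemistry), 1 library for each age and condition. The deposited counts are raw UMI counts per gene and barcode, made by the authors against mm10 (Cell Ranger 3.1.0). The processing notes also name Seurat. Control libraries came from another sequencing run and were left out of comparisons. The members and gene lists were chosen with earlier results of these data known.

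Young sums were compared as CPM with exact conditional Poisson intervals (95%) and a 2-fold limit. A gene at 0 on 1 side was set to 3 counts. Shares have exact binomial intervals and their differences Newcombe intervals. Sums of HU and reload in both ages were tested with edgeR 4.0.16 (R 4.3.3; quasi-likelihood, age as a block, filterByExpr, Benjamini-Hochberg) and with DESeq2 1.42.0. Scripts were tested on simulated data. Doublets scored by scrublet (scanpy 1.11.5) were kept, and 1 HU and 2 reload members were among them. Genes were named by the 15 largest ratios each way in at least 10% of cells, the 4 members of each list with most UMIs or its extremes, the rule's genes, the class markers, the 10 largest changes each way in both ages, and counts of 5 or fewer. Other genes were chosen after their values were seen. Leiden clusters came from scanpy. Promoter windows are from RefSeq (GRCm38.p6).

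Alternatives were mitochondrial limits of 5% and 20%, 1000 genes, thinning, at least 3 of the 8 genes, 0 complement UMIs, doublet removal, a limit on macrophage genes, other scalings and minimums, cDC2-gene or core cells alone, reweighed classes, Flt3 or Ptprc asked for, Leiden classes, no age block, and each library left out. The cDC2-gene, core, reweighed, Flt3 and Ptprc sets and thinning of the chosen cells were added after seeing the data.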

Additional observations from a re-analysis of the deposited data

Results flagged for a closer look

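For 10 genes the young and the old pair had ratios of at least 2-fold in opposite directions, with counting intervals that excluded 0 in both ages, out of 19 with opposite directions. With 1 library a side these differences between ages were not tested. Log2 ratios of reload over HU in young and old were 4.91 and −2.15 for Ccl22, 1.12 and −1.41 for Ccl5, −1.47 and 1.22 for Cd36, and 4.01 and −1.37 for Clec4d. They were −2.15 and 1.90 for the heat shock gene Hsph1, 3.43 and −2.64 for Il4i1, −3.84 and 1.38 for Lpl, and 4.38 and −1.37 for Serpinb9. Eno3 (1.08 and −1.38) and Il12b (2.05 and −4.40) had 0 UMIs in young HU, so their young values are bounds. Single cells carried several of these values. In old HU 1 cell gave 89.7% of the Ccl22 UMIs, 100% of Il12b, 85.0% of Il4i1, 84.0% of Serpinb9 and 75.0% of Eno3, in young reload 1 cell gave 62.0% of Ccl22, and in young HU 1 cell gave 16 of the 32 UMIs of Cd36. Likewise 1 cell gave 20 of the 32 Ccl5 UMIs in young HU and 58.1% of the Il12b UMIs in young reload. Ccl22, Clec4d, Il4i1 and Serpinb9 had 1 UMI each in young HU. Hsph1 was spread over 42 of 108 young HU cells and 6 of 85 old HU cells.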

How the results depend on the processing

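The share difference of the chosen cells (7.25 points) was 5.30 with at least 1000 genes, 0.949 after thinning, 4.19 with at least 3 of the 8 genes and 2.98 among cells with Ptprc. The cDC1-like difference (35.6) was 9.46 after thinning before the rule, 27.3 after thinning the chosen cells and 45.3 with macrophage genes limited, and the cDC2-gene difference (−36.6) was −17.0 and −45.6 under the first and last of these. Genes higher in young (1450) numbered 764 after thinning, 649 with at least 20 UMIs expected and 2439 at 1.5-fold, and genes lower (400) 180, 117 and 904, or 1315 with at least 1 UMI expected. Higher genes made up 78.4% of calls, 71.7% with mitochondrial, ribosomal and haemoglobin genes out of the total and 57.8% with at least 1 UMI expected. In both ages, 450 rising and 506 falling genes became 72 and 105 by DESeq2, 245 and 329 without the age block, 80 and 168 with macrophage genes limited, 188 and 166 after thinning, 294 and 279 in cDC2-gene cells, and 732 rising without the filter. The counts of rising and falling genes that follow come from fits without the age block and with 1 library on a side. Age is mixed with reloading there, so these counts cannot show how far the calls depend on a library. Without each library in turn they ranged from 104 to 555 and from 139 to 414, with 104 and 139 without young HU, 108 and 169 without young reload, and 230 and 242 without old reload.

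Of 172 named genes 100 were at least 2-fold apart, and 51 of these kept direction and 2-fold (bounds taken at their value) under all 14 alternatives that change the sums. For the following values HU held 0 UMIs under the alternative and was set to 3 counts, so each is a lower bound and shows no turn: after thinning Serpinb9 (−0.63), Plet1 (−0.15), Pmepa1 (−2.95), Nfyb (−0.95), Mcm5 (−1.37), Scd2 (−0.37), Btla (−0.63), Il4i1 (−0.15), Cacnb3 (−1.95), Ly6d (−0.37), Siglech (−0.37), Klk1 (−1.95) and Col1a1 (−2.95), with macrophage genes limited Osm (−0.19), in reweighed cells Cacnb3 (−1.06), in cDC2-gene cells Itgae (−3.37) and Cacnb3 (−1.78), and in the core Plet1 (−0.20), Itgae (−3.20), Cacnb3 (−1.61) and Siglech (−0.61). The sign turned, with an interval that held 0, for Irgm1 after thinning (1.22), Apoe with macrophage genes limited (−0.013), Clec9a in reweighed cells (−0.11), Btla (−0.56) and Spp1 (−0.20) in cDC2-gene cells, Btla (−0.74) and Cox6a2 (−0.61) in the core, and Cox6a2 (−1.60) and Ly6c1 (0.67) with at least 3 of the 8 genes. It turned, with an interval under 0, for Fscn1 with 0 complement UMIs (−2.93), in reweighed cells (−2.24), in cDC2-gene cells (−2.27) and in the core (−2.10). Of the Fscn1 UMIs, however, 1 cell gave all 7 in young HU and 1 cell gave 116 of 160 in young reload. The cause of these turns was not tested.

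Equal weights for classes with at least 20 cells on both sides left the cDC2-gene class alone and gave its values, and no cluster kept the names of the cDC2 or mature class. Beyond the age block no paired analysis was possible, because each group is a single library and the shared replicate number pairs nothing. The 638738 UMIs of HU limit low genes.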
